A study of Mus musculus with 8 samples.

Results

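The 8 genes described here encode the subunits of CCT, the cytosolic chaperonin also called TRiC. They are Tcp1, Cct2, Cct3, Cct4, Cct5, Cct6a, Cct7 and Cct8, and each was followed through every probe set of the arrays annotated to it alone. That gave 25 probe sets of the 45101 on the array and 8 genes of the 18193 with a probe set of their own. Of the 25 probe sets, 21 passed a filter on low signal and 4 did not, namely 3 of Cct3 and 1 of Cct8. The genes were taken as the subunits of one complex rather than by a threshold on a measured value, though earlier results of these data were known when they were picked.

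The study compared mice with and without oocyte-directed loss of connexin 43, which Gja1 encodes and which forms gap junction channels, at 3 stages. RNA from oocytes at metaphase of meiosis II was hybridised to 1 KO and 1 WT array, blastocysts to 2 KO and 2 WT arrays, and tissue labelled as embryo from the implantation site to 1 KO and 1 WT array. The labels give the genotype as KO or WT alone. The strain, the mice's age, the promoter or Cre line behind the deletion, the genotype of the fathers and the number of animals or embryos pooled on an array are not stated in the labels, and nothing there says that the blastocyst arrays came from separate pools. P-values then measure the spread between these arrays, which may be technical.

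CCT is built from a pair of stacked rings, each with 8 different but related subunits in a fixed order, and it folds newly made proteins in a closed chamber by binding and hydrolysing ATP. Actins and tubulins depend on it, as do several proteins built from WD repeats, including the Cdc20 and Cdh1 activators of the anaphase-promoting complex. Prefoldin hands it unfolded chains, phosducin-like proteins assist it, and the Hsp70 machinery works upstream of it. Oocytes and cleaving embryos depend on spindles and cell cycle regulators made from such clients. The genes lie on 8 chromosomes of GRCm38.p6, 1 gene on each. Since each complete ring holds 1 copy of each subunit, the question here is whether the 8 mRNAs moved together across stage and genotype.

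The start regions of the subunit genes are shown first, because the results turn on 7 mRNAs that rose together between the oocyte and the blastocyst and on Cct8, which did not. RefSeq promoter windows of GRCm38.p6, from 250 bases before to 50 bases after the outermost transcript start, were at hand for 7 of the 8 genes, with none used for Cct4. The 250 upstream bases follow for Cct6a and Tcp1, with large rises, for Cct3, which carries 2 matches to the binding core of the transcription factor NRF1, and for Cct8. Capitals mark the GC box GGGCGG, the CCAAT box and the NRF1 core on either strand.
Cct6a chr5:129787106-129787355, plus strand: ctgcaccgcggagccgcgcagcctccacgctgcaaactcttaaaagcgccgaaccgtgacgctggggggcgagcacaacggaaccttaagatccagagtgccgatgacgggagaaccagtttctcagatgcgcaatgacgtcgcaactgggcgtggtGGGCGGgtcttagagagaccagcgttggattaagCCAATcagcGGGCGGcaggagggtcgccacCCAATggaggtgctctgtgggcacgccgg
Tcp1 chr17:12916079-12916328, plus strand: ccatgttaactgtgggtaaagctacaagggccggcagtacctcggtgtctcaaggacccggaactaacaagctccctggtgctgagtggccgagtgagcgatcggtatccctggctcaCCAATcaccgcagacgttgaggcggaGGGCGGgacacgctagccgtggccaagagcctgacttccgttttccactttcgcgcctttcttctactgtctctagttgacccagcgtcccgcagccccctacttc
Cct3 chr3:88296885-88297134, plus strand: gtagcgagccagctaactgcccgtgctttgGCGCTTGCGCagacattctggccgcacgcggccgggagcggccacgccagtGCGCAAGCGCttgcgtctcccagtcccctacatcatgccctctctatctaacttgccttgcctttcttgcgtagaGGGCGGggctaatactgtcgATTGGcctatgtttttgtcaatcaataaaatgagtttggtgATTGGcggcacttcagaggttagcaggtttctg
Cct8 chr16:87495870-87496119, minus strand: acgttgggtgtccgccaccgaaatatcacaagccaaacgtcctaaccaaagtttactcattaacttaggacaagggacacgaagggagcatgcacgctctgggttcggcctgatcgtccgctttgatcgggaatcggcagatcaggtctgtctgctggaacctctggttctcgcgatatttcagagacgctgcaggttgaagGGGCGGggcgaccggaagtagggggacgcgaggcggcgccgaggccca
None of the capitalised matches overlapped another. The GC box GGGCGG, searched on both strands, was present in 7 of the 7 windows and in 35.7% of all 32851 windows of the same length. Those windows include further starts of a gene, while the counts of 7 leave out a second window each of Cct2 and Cct5, from 9 windows of members. The second Cct2 window held 2 GC boxes and 1 heat shock core GAANNTTC. The second Cct5 window held 0 GC boxes and 1 NRF1 core. The GC content of the 7 ran from 47.3% for Cct5 to 67.7% for Cct7. All but Cct5 lay above the median of all windows, 52.7%, and the shares given here are not adjusted for it. The CCAAT box was present in 4 of 7, those of Tcp1, Cct3, Cct6a and Cct7, against 37.4% of all windows. The NRF1 core was in 2 of 7, Cct3 and Cct5, against 4.6%. The heat shock core TTCNNGAA was in 2 of 7, Cct5 and Cct6a, against 8.52%, and its mirror GAANNTTC in 0 of 7 against 7.86%. The E-box CACGTG was in 0 of 7 against 7.15%, and the TATA box TATAAA in 0 of 7 against 13.6%. Cct8 shared the GC box with the other 6 genes and held none of the other motifs searched. The same was true of the outermost Cct2 window, and the Cct2 mRNA rose, so this does not set Cct8 apart. These matches describe letters in a window and show no binding.

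All values are signal intensities that the authors had scaled so that the trimmed mean of each array is 500, so a difference is relative to the rest of that array's signal. In such bulk samples, fewer cells of a type and less RNA per cell cannot be told apart. Gja1 was measured by 6 probe sets. The one with the highest signals, 1437992_x_at, read 150 on the KO and 126 on the WT oocyte array, 375 and 553 on the KO blastocyst arrays, 9835 and 574 on the arrays labelled WT replicate 1 and replicate 2, and 28105 and 44493 on the KO and WT implantation site arrays. The blastocyst array labelled WT replicate 2 was thus close to the KO arrays. The subunits' medians in the fitted comparisons that use the blastocyst arrays are given with and without it. Gene lists, single probe sets, correlations and counts of groups that do not overlap were read only with it. The deleted part of Gja1 is unstated. Of 8 oocyte markers, 6 on the KO and 7 on the WT oocyte array lay above the brightest of 27 control probe sets for Bacillus genes, which stand for background, and Zp3, a coat protein gene of the oocyte, lay above it on neither. The 7 trophectoderm markers were above it on every blastocyst array. The implantation site arrays had a summed signal of 131230.4 to 153268 over 9 markers of uterus and decidua and of 248.8 to 624 over 6 markers of the inner cell mass, with Nanog at 4.94 and 10.6, and the embryo's share of this tissue is unknown.

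From oocyte to blastocyst, 7 of the 8 subunit mRNAs rose and Cct8 did not pass the test. Among subunits above background on all 8 arrays, the rises ran from 3.17-fold for Cct7 to 17.8-fold for Cct4. Cct5 and Cct6a, below background on the KO oocyte array, rose at least 12.8-fold and at least 17.0-fold, with that array's value raised to its brightest Bacillus control. The median log2 difference was 3.39 over all 8 subunits, or 3.365 with these bounds, against 0.43 over the 11746 genes tested. In that test, with genotype as a term in limma and a Benjamini-Hochberg adjusted p under 0.05 as the threshold, 26.9% of genes passed as higher and 18.6% as lower in blastocysts. For each of the 7, all 4 blastocyst arrays lay above both oocyte arrays, which was so for 32.7% of genes. Without the blastocyst array labelled WT replicate 2, 7 subunits passed as higher and the median was 3.46. From blastocyst to implantation site Cct5 fell, and the differences of the other 7, from -0.61 to 0.89 on the log2 scale, did not pass.

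**Figure D1:**
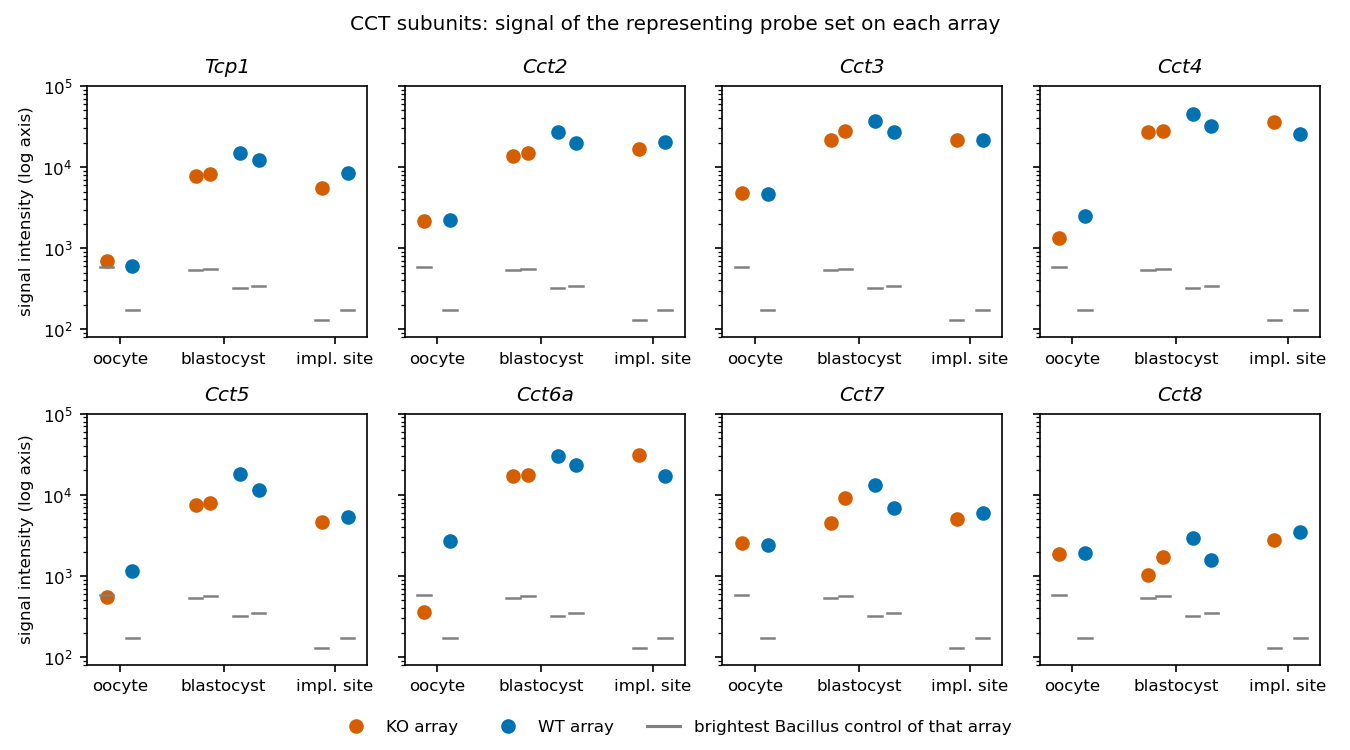
Signal intensity (log axis) of the probe set representing each subunit on each of the 8 arrays, by stage, with KO arrays in orange and WT arrays in blue; grey bars mark the brightest Bacillus control of the same array. For 7 subunits the blastocyst points lie above the oocyte points, while the Cct8 points of oocytes, 1854 and 1899.6, lie among those of blastocysts, 1026 to 2911.

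Tcp1, Cct2, Cct4 and Cct5 encode the alpha, beta, delta and epsilon subunits, which lie side by side in the ring and bind ATP tightly. Tcp1 (1448122_at) read 702 and 598 on the KO and WT oocyte arrays, 7729.6 and 8206 on the KO blastocyst arrays, 15063 and 12346 on the WT blastocyst arrays, and 5503 and 8483 on the KO and WT implantation site arrays. Its blastocyst arrays were thus all far above both oocyte arrays, and the rise was 16.1-fold (log2 difference 4.01, SE 0.31, adjusted p = 2.547e-06). Its implantation site level was 10.5-fold above that of oocytes (adjusted p = 4.044e-05).

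Cct2 (1433535_x_at) read 2149 and 2217 on the KO and WT oocyte arrays, 13537 and 14872 on the KO blastocyst arrays, 27349.97 and 19569 on the WT blastocyst arrays, and 16543 and 20243 on the KO and WT implantation site arrays. The oocyte pair was nearly equal and lay below all other arrays. The rise to the blastocyst was 8.30-fold (log2 3.05, SE 0.31, adjusted p = 1.345e-05), and the implantation site stood 8.38-fold above the oocyte (adjusted p = 7.195e-05).

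Cct4 (1433447_x_at) read 1334 and 2478 on the KO and WT oocyte arrays, 27035 and 28168 on the KO blastocyst arrays, 45033 and 31962 on the WT blastocyst arrays, and 35842 and 25647 on the KO and WT implantation site arrays. Here the KO oocyte array was the lowest and the WT replicate 1 blastocyst array the highest. The rise was 17.8-fold (log2 4.15, SE 0.35, adjusted p = 4.406e-06), with 16.7-fold between oocyte and implantation site (adjusted p = 3.148e-05).

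Cct5 (1417258_at) read 550 and 1155 on the KO and WT oocyte arrays, 7579.6 and 7846 on the KO blastocyst arrays, 18186 and 11407 on the WT blastocyst arrays, and 4665 and 5399 on the KO and WT implantation site arrays. It peaked in blastocysts, with both implantation site arrays between the oocyte and blastocyst arrays. The KO oocyte value lay below that array's brightest Bacillus control, which read 588, so the oocyte level is in part an upper bound. The rise to the blastocyst was at least 12.8-fold (fitted log2 of measured signals 3.72, SE 0.31, adjusted p = 4.197e-06). From blastocyst to implantation site it fell by 1.07 on the log2 scale (SE 0.31, adjusted p = 0.02141), and it was at least 6.09-fold above the oocyte (adjusted p = 0.0002056 on measured signals). The fall did not pass without the WT implantation site array (log2 -0.70, adjusted p = 0.1763) or when arrays were scaled to a common median (log2 -0.71, adjusted p = 0.2908).

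Cct3, Cct6a, Cct7 and Cct8 encode the gamma, zeta, eta and theta subunits, which form the other side of the ring and bind ATP less tightly. Cct3 (1448178_a_at) read 4796 and 4620.2 on the KO and WT oocyte arrays, 21836 and 27725 on the KO blastocyst arrays, 37399 and 26755 on the WT blastocyst arrays, and 21785 and 21649 on the KO and WT implantation site arrays. Genotypes were nearly equal in oocytes and at the implantation site. It rose 5.93-fold to the blastocyst (log2 2.57, SE 0.32, adjusted p = 5.975e-05) and was 4.61-fold above the oocyte at the implantation site (adjusted p = 0.0007404).

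Cct6a (1455988_a_at) read 358 and 2718 on the KO and WT oocyte arrays, 17082 and 17718 on the KO blastocyst arrays, 30062 and 23239.6 on the WT blastocyst arrays, and 30702 and 17116 on the KO and WT implantation site arrays. It was far lower on the KO than on the WT oocyte array, and the KO array was the higher one at the implantation site. Its KO oocyte value, too, lay below the brightest Bacillus control, so 1 of the 2 oocyte arrays gave only an upper bound. The rise to the blastocyst was at least 17.0-fold (fitted log2 of measured signals 4.44, SE 0.57, adjusted p = 7.327e-05). The implantation site was at least 18.1-fold above the oocyte (adjusted p = 0.0002889 on measured signals). The order of Cct6a, Cct4 and Tcp1 by size of rise is therefore not settled.

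Cct7 (1415816_at) read 2527 and 2415 on the KO and WT oocyte arrays, 4448 and 9219.6 on the KO blastocyst arrays, 13309 and 6922 on the WT blastocyst arrays, and 5071 and 5930.3 on the KO and WT implantation site arrays. Its blastocyst arrays spread widely, with one KO array above one WT array. The rise to the blastocyst was 3.17-fold (log2 1.67, SE 0.38, adjusted p = 0.003924) and did not pass without the WT oocyte array (log2 1.40, adjusted p = 0.07502). The log2 difference between implantation site and oocyte was 1.15 (SE 0.44, adjusted p = 0.06015), which did not pass. It passed by limma after quantile normalization (log2 1.08, adjusted p = 0.04865) and with the gene's probe sets averaged (log2 1.93, adjusted p = 0.003809). The second Cct7 probe set in that average was below background on the KO oocyte array. Without blastocyst KO replicate 1 or WT replicate 1 the difference stayed at 1.15.

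Cct8 (1415785_a_at) read 1854 and 1899.6 on the KO and WT oocyte arrays, 1026 and 1713 on the KO blastocyst arrays, 2911 and 1559 on the WT blastocyst arrays, and 2791 and 3474 on the KO and WT implantation site arrays. Oocyte and blastocyst arrays overlapped, and all 8 arrays lay above their brightest Bacillus control. The blastocyst minus oocyte log2 difference was -0.16 (SE 0.36, adjusted p = 0.7532) and the implantation site minus blastocyst difference 0.89 (SE 0.36, adjusted p = 0.07792). The latter passed without WT blastocyst replicate 1 (log2 1.12, adjusted p = 0.02838). The other Cct8 probe set, 1436973_at, was above the brightest Bacillus control on 0 of 8 arrays, so the Cct8 profile rests on 1 probe set.

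**Figure D2:**
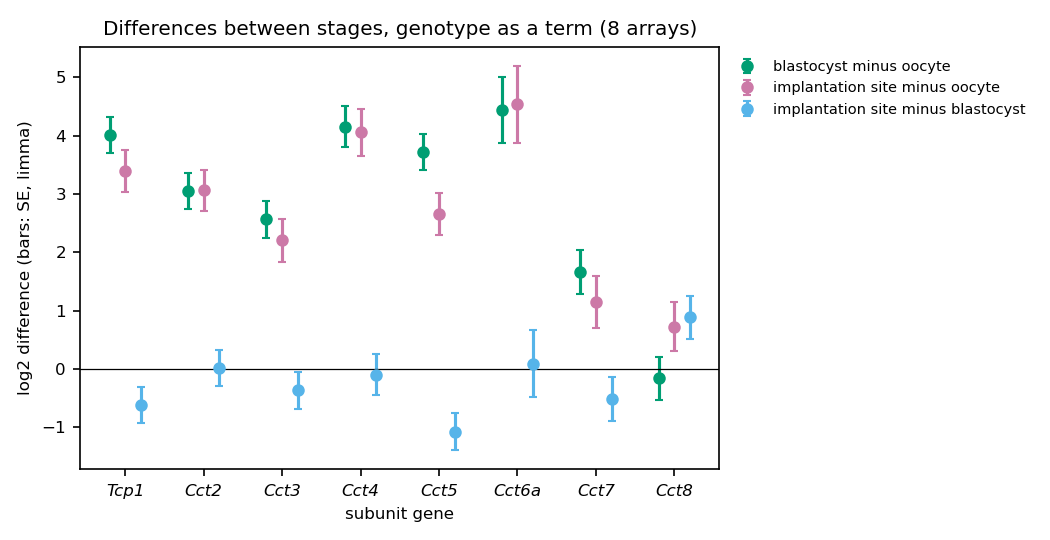
Log2 differences between stages for each subunit with genotype as a term, fitted on 8 arrays with limma; bars are standard errors, and the values of Cct5 and Cct6a against oocytes rest on 1 oocyte signal below background. Blastocyst minus oocyte is above 1.6 for every subunit but Cct8, at -0.16, while implantation site minus blastocyst lies between -1.07 for Cct5 and 0.89 for Cct8.

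From oocyte to implantation site, 6 of 8 subunits passed as higher, with a median log2 difference of 2.86. Of all genes, 20.5% passed as higher and 16.6% as lower in that contrast. From blastocyst to implantation site, 1 subunit passed as lower and 0 as higher, against 20.0% and 15.3% of all genes, and the subunits' median log2 difference was -0.23 against -0.35 for all genes. Without the KO implantation site array it was -0.55, and without the WT one -0.067. At an unadjusted p under 0.05, 1 subunit was higher and 1 lower there, against 18.9% and 27.4% of all genes. Without the blastocyst array labelled WT replicate 2, 1 subunit again passed as lower and the median was -0.29. With arrays scaled to a common median the subunits' median turned to 0.13, 0 subunits passed as lower, and the calls over all genes were 2065 higher and 1598 lower in place of 1798 and 2353.

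Probe sets of one gene did not always share the stage pattern. Of the 25, 18 had all blastocyst arrays above both oocyte arrays, 6 overlapped, and 1, the Cct4 probe set 1415868_at, had both oocyte arrays above all blastocyst arrays. Among all 34945 single-gene probe sets, blastocyst arrays lay above both oocyte arrays in 20.8% and below both in 19.5%. That Cct4 probe set read 323 and 371 on the KO and WT oocyte arrays and between 129 and 306 on the blastocyst arrays, and exceeded the brightest Bacillus control on 3 of 8 arrays. The Cct4 probe set 1430034_at read 521 and 604 on the oocyte arrays and 469 to 1086 on the blastocyst arrays, unlike the other 5 Cct4 probe sets, whose groups did not overlap with blastocysts higher. At the implantation site, 2 Cct4 probe sets, 1456572_x_at and 1456082_x_at, read 1776 and 1413 on the KO array and 2522 and 2884 on the WT array, below all their blastocyst values of 3699.9 to 10481. The second Cct6a probe set, 1423517_at, also rose, from 588 and 1102 to between 6898 and 13485. The second Cct7 probe set, 1415817_s_at, read 62 and 202 in oocytes, the former below background, and between 487 and 969 in blastocysts. The Cct3 probe sets 1439679_at, 1449645_s_at and 1451915_at, which did not pass the filter, were above the brightest Bacillus control on 2, 2 and 0 of 8 arrays.

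Across the 8 arrays the log2 signals of the subunits ran nearly in parallel, apart from Cct8. The Pearson correlation over the 8 arrays had a median of 0.91 over the 28 pairs of subunits, and of 0.95 with a lowest value of 0.77 over the 21 pairs without Cct8. The pairs with Cct8 ran from 0.06 with Cct5 to 0.28 with Cct7. The median over all pairs of the 11746 genes was 0.032. The 8 points fall into 3 stages, share their arrays and each array's scaling, and are therefore a description with no test. After each stage's mean was subtracted, the median over the 28 pairs was 0.68, against 0.007 for all gene pairs, and 27 of 28 were positive. The exception was Tcp1 with Cct6a, at -0.04. The pairs with Cct8 then ran from 0.21 with Cct6a and 0.49 with Cct4 to 0.97 with Cct3 and 0.98 with Cct7. Its departure from the other subunits over all arrays thus lay mainly in the stage means. Cct6a then had low values also with Cct7 (0.14), Cct3 (0.19) and Cct2 (0.25), against 0.75 with Cct5 and 0.91 with Cct4. Tcp1 with Cct4 was at 0.20. For oocytes and implantation sites these deviations rest on 1 KO and 1 WT array. Of the brightest 25% of genes, 72.1% were lower in KO oocytes, 74.1% in KO blastocysts and 37.9% at the KO implantation site. Among all genes these shares were 46.7%, 50.6% and 56.7%. No median over pairs of bright genes was taken, so the part of signal level in the 0.68 was not tested. Against the mean profile of the 8 subunits, which includes the subunit compared, Cct2 and Cct4 had the highest correlation, 0.99 each, Cct7 had 0.90 and Cct8 0.21. The genes outside the complex with the highest correlation to that mean profile were Dnaja1 at 0.997, Rpl6 at 0.994, Polr2b at 0.993, Nono at 0.993 and Spcs1 at 0.993. These genes all lay above every subunit, so following the profile closely was not particular to the complex. They encode a J-domain partner of Hsp70, a protein of the large ribosomal subunit, a core subunit of RNA polymerase II, an RNA-binding protein of paraspeckles and a signal peptidase subunit.

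In blastocysts, all 8 subunits had lower mean signal on the KO than on the WT arrays, and none passed the test. The log2 differences ran from -0.90 for Cct5 to -0.36 for Cct3 with a median of -0.64. Over all genes tested, 0.102% passed as higher in KO and 0% as lower by limma. At an unadjusted p under 0.05, Tcp1 and Cct5 were lower and 0 subunits higher, against 1030 genes higher and 788 lower in all. The direction varied with signal level. Among all genes 50.6% were lower in KO, with a median of -0.01, but among the brightest 25%, 2937 genes, 74.1% were lower, with a median of -0.32.

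Among the tightly ATP-binding subunits, Cct5 differed most, with KO arrays at 7579.6 and 7846 below WT arrays at 18186 and 11407 (1.87-fold lower, log2 -0.90, SE 0.32, adjusted p = 0.2643 by limma). Tcp1 was 1.71-fold lower (log2 -0.78, SE 0.28, adjusted p = 0.2708 by limma). Cct2 was 1.63-fold lower (log2 -0.71, SE 0.32, adjusted p = 0.3352), and Cct4 1.37-fold lower (log2 -0.46, SE 0.34, adjusted p = 0.5422). On the other side of the ring, Cct8 was 1.61-fold lower (log2 -0.68, SE 0.41, adjusted p = 0.4516), Cct6a 1.52-fold (log2 -0.60, SE 0.31, adjusted p = 0.3862), Cct7 1.50-fold (log2 -0.58, SE 0.44, adjusted p = 0.5408) and Cct3 1.29-fold (log2 -0.36, SE 0.35, adjusted p = 0.6406). The KO arrays lay below both WT arrays for 5 of the 8, Tcp1, Cct2, Cct4, Cct5 and Cct6a. That held for 25.3% of all genes, and the opposite for 23.8%. For Cct3, Cct7 and Cct8 the higher KO array, replicate 2, lay above the lower WT array, replicate 2.

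**Figure D3:**
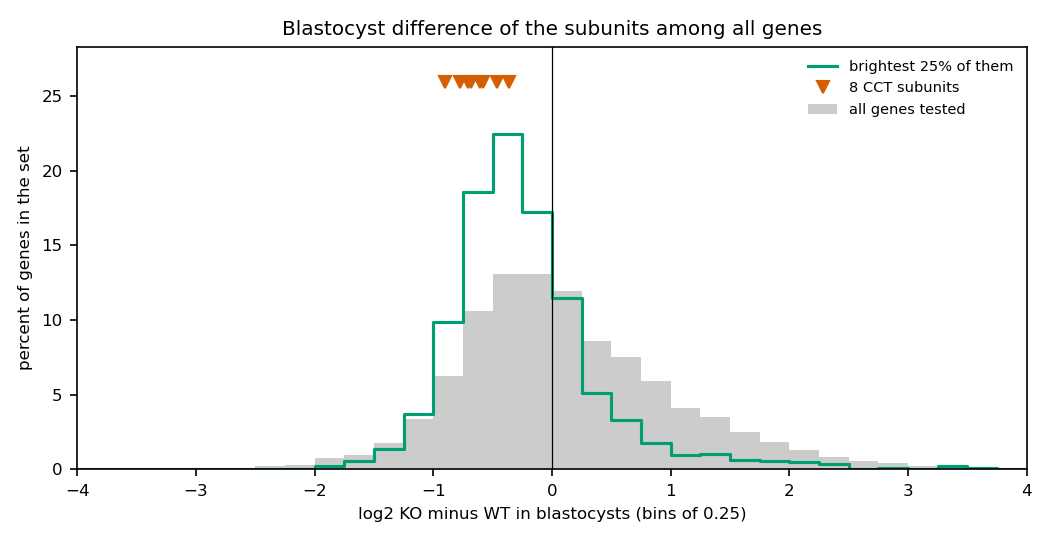
Share of genes (percent of each set) by log2 KO minus WT in blastocysts, for all 11746 genes tested (grey) and the brightest 25% of them (green line); orange triangles mark the 8 subunits. The subunits lie between -0.90 and -0.36, where the brightest genes, with a median of -0.32, are also frequent.

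Single arrays moved these values. Without the array labelled WT replicate 1 the median of the subunits was -0.33, and without the one labelled WT replicate 2, whose Gja1 signal was close to the KO arrays, it was -0.93. In the latter case Cct5 passed (log2 -1.24, adjusted p = 0.04837), with 294 of all genes higher and 22 lower, while the median of the brightest genes was -0.48. All 8 subunits stayed lower in KO without each of the 4 blastocyst arrays in turn. They also stayed lower under each of the other 3 scalings of the arrays, with medians of -0.45 after quantile normalization, -0.90 with a common median and -0.36 when the brightest 25% of genes were given a common median. That last scaling put the median of the brightest genes at -0.04 and the median of all genes at 0.27. The common median put the median of all genes at -0.26, with 59 genes higher and 14 lower in place of 12 and 0.

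Other measures differed between the genotypes of blastocysts as well. The ratio of 3′ to 5′ signal of Actb, which depends on RNA length, was 25.7 and 39.0 on the KO arrays against 69.3 and 69.1 on the WT arrays, and that of Gapdh was 11.2 and 11.8 against 7.27 and 7.71. The summed signal of 7 immune and blood markers was 8121 and 14362 on the KO arrays against 1474 and 4803 on the WT arrays, with Ptprc, which marks all white blood cells, below background on all 4 and 2, 2, 1 and 2 of the 7 markers above it. The sum was mostly Csf1r, a macrophage receptor gene, at 6134 and 11937 against 593 and 3881. The 6 inner cell mass markers summed to 8588 and 9111 against 13924 and 10479.7, and the 7 trophectoderm markers to 59356 and 59559 against 64902 and 51339. Their part in the result was not tested.

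The other probe sets showed how far the blastocyst difference depends on the probe set. Of all 25, 20 were lower in KO and 5 higher. Of the 21 past the filter, 17 were lower and 4 higher. The Cct4 probe set 1456572_x_at read 7939.6 and 8391 on the KO arrays and 3699.9 and 6417 on the WT arrays, and 1456082_x_at read 8923 and 10481 against 5737 and 7497, so in both the KO arrays were above the WT arrays (log2 0.74 and 0.56). The Cct7 probe set 1415817_s_at went the same way, with 788 and 969 against 766 and 487 (log2 0.52). The Cct6a probe set 1423517_at overlapped, with 7038 and 13485 on the KO and 8621 and 6898 on the WT arrays (log2 0.34). In the Cct3 probe set 1459987_s_at, KO replicate 2 stood apart at 1462, while KO replicate 1 read 10999 and the WT arrays 27989 and 17536. Of the other Cct3 probe sets, 1426067_x_at was at -1.30, 1416024_x_at at -0.18, and the 3 below the filter, 1439679_at, 1449645_s_at and 1451915_at, at -1.26, -3.09 and 0.13. The Cct4 probe set 1415867_at was at -0.81. The other Cct2 probe sets, at -0.47 and -0.62 on the log2 scale, were lower in KO like the representing one.

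**Figure D4:**
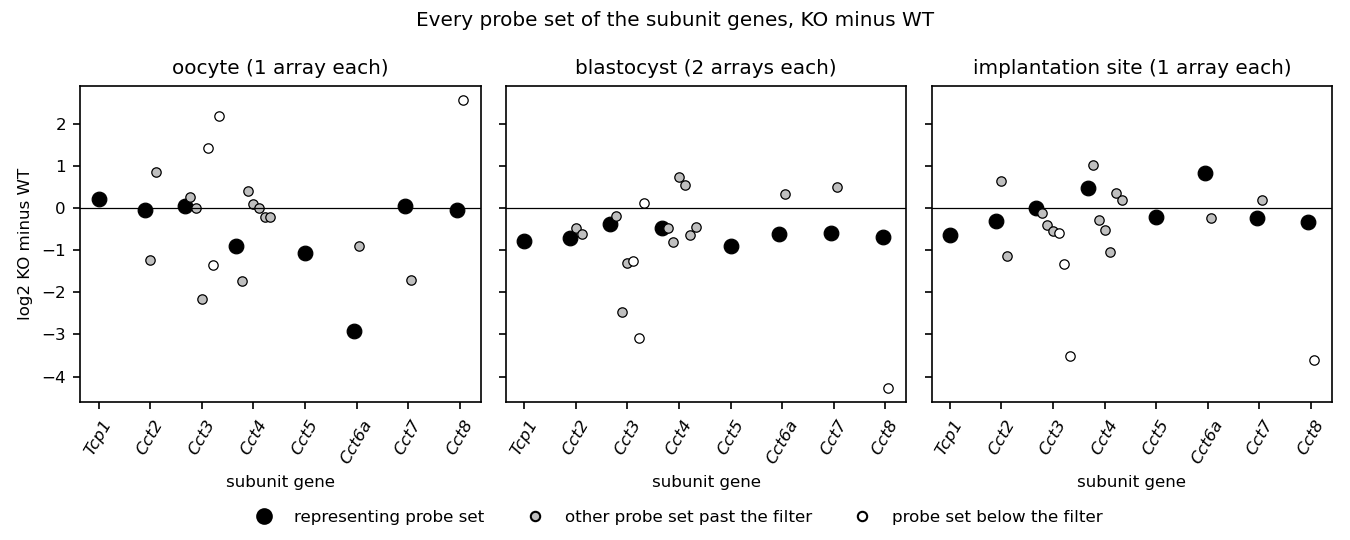
Log2 KO minus WT for each of the 25 probe sets of the subunit genes at each stage; large black points are the representing probe sets, grey points others past the filter and open points those below it. In blastocysts 20 of 25 points lie below 0, in oocytes 13 and at the implantation site 17.

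In oocytes, with 1 array of each genotype and no replicate check, the subunits differed unevenly. Cct6a stood out, with 358 on the KO and 2718 on the WT array. Because the KO value is below that array's brightest Bacillus control, it was at least 4.63-fold lower by this probe set. Cct5, with 550 on the KO array, also below that control, was at least 1.97-fold lower on that basis. Cct4 was 1.86-fold lower (log2 -0.89). By measured signal 2 subunits, Cct6a and Cct5, were at least 2-fold lower, as were 12.3% of all genes. No subunit (0 of 8) was higher by that factor, against 23.9% of all genes. Of the brightest 25%, 2937 genes, only 143 were higher and 395 lower by that factor, with a median of -0.38. The other 5 subunits lay between -0.04 for Cct2 and 0.23 for Tcp1 on the log2 scale. Which of these lay above 0 depended on the scaling, since with a common median all 8 were lower in KO, with a median of -0.58 in place of -0.04. The second Cct6a probe set read 588 and 1102 (log2 -0.91), in the same direction and 1.87-fold lower by measured signal. Its KO value was level with that array's brightest Bacillus control, also 588. Whether the Cct6a probe sets differ in the size of the difference is therefore not settled. The Cct2 probe sets went apart, with 1433534_a_at at 847 and 1979 and 1416037_a_at at 1161 and 635. The KO oocyte array had the lower Actb 3′ to 5′ ratio, 6.68 against 33.4, and a summed oocyte marker signal of 67681 against 103703; their part in these differences was not tested.

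At the implantation site, again 1 array of each genotype, no subunit differed by 2-fold. Among all genes a difference of that size was seen in 6.12% with KO higher and in 15.9% with KO lower. Of the brightest 25%, 2937 genes, 107 were higher and 107 lower by that factor, with a median of 0.16. Cct6a read 30702 on the KO and 17116 on the WT array (log2 0.84) and Cct4 35842 and 25647 (log2 0.48), while Tcp1 read 5503 and 8483 (log2 -0.62). Cct3 was nearly equal (log2 0.01), and Cct2, Cct5, Cct7 and Cct8 lay between -0.32 and -0.21. The median of the 8 was -0.22 on the deposited scale, where 5 of 8 were lower, and 0.19 with a common median, where 7 of 8 were higher. It was -0.43 after quantile normalization and -0.34 with a common median of the brightest genes, with 6 of 8 lower in each. The direction for several subunits thus depended on the scaling. Probe sets of one gene disagreed here too. The Cct4 probe set 1438560_x_at read 21031 on the KO and 10305 on the WT array, while 1456082_x_at read 1413 and 2884. For Cct2, 1433534_a_at read 14919.9 and 9487, and 1416037_a_at read 5297 and 11723.

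Over all 3 stages, with stage as a term, the KO minus WT difference was below 0 for all 8 subunits and passed for none. The median was -0.43, against -0.01 for all genes and -0.21 for the brightest 25%. Cct5 was at -0.77 (log2, SE 0.26, adjusted p = 0.7072 by limma). Cct6a was at -0.82 (SE 0.46, adjusted p = 0.7279), or at -0.64 with its KO oocyte signal raised to background, and Cct3 was nearest to 0 (log2 -0.17, SE 0.26, adjusted p = 0.8787). By limma 0% of all genes passed as higher and 0% as lower, while at an unadjusted p under 0.05 1 subunit, Cct5, was lower and 0 higher, with 428 of all genes higher and 385 lower. 4 of the 8 arrays in this test are those of the blastocyst comparison. Without the blastocyst arrays the median was -0.19 and Cct3 was above 0 (log2 0.03). Without WT blastocyst replicate 1 the median was -0.25, and without WT replicate 2 it was -0.48.

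The genes that work with CCT were followed through lists drawn up for the pathway. In KO against WT blastocysts no member of the 8 lists passed the test on all 4 arrays, and the lists were not read without WT replicate 2. Of 8 prefoldin genes 6 were lower, with a median of -0.34, and the values farthest from 0 were Uri1 (log2 -0.90), Vbp1 (-0.85) and Pfdn4 (-0.84), which encode subunits of prefoldin and of its relatives. Of 7 tested phosducin-like and R2TP co-chaperone genes 5 were lower, with a median of -0.43, among them Rpap3 (-1.12) and Pdcl3 (-0.53), while Pih1d1 was at 1.48. Of 9 tested cytosolic folding partners 6 were lower, with a median of -0.40, with Dnajb1 at -0.95, Hsph1 at -0.78 and Bag1 at -0.54. That list holds genes of the Hsp70 and Hsp90 system and the heat shock factor gene Hsf2. The clients went both ways. Of 13 tubulins 6 were lower (median 0.12), with Tubb4b at 1.40, Tube1 at 1.00 and Tuba8 at 0.71. Of 7 actins and actin-related genes 3 were lower (median 0.42), with Actr1a at 2.40, Acta2 at 1.27 and Actc1 at 1.25. The 3 lower ones were Actb (-1.03), Actr3 (-0.74) and Actg1 (-0.29). Of 6 tubulin cofactor genes 2 were lower (median 0.05), with Tbce at 1.29, Arl2 at -0.60 and Tbca at -0.43. Of 16 WD repeat and other clients 10 were lower (median -0.25), with Wrap53 at 1.39, cyclin E gene Ccne1 at -1.27 and Fzr1, which encodes Cdh1, at -1.07. Of 4 tested chaperonin relatives 3 were lower (median -0.22), with Bbs10 at 1.57 and the mitochondrial chaperonin genes Hspe1 and Hspd1 at -0.39 and -0.31. The smallest adjusted p among these named genes was that of Bbs10, 0.1594 by limma. Over the 3 stages, too, no list member passed, and list medians ran from -0.21 to 0.28.

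Between oocyte and blastocyst, 26.9% of all genes passed as higher and 18.6% as lower, and each list's count is to be read against these shares. Of the 9 cytosolic folding partners 8 rose and 0 fell (median log2 2.77), while Dnajb1 did not pass (-0.61). Those that rose included Hsph1 (2.77, SE 0.38), Bag1 (3.53, SE 0.71) and the heat shock factor gene Hsf2 (1.46, SE 0.52). Of the 4 chaperonin relatives 2 rose, Hspe1 (3.13, SE 0.34) and Hspd1 (1.61, SE 0.30). Of the 8 prefoldin genes 3 rose and 4 fell (median -1.19), with Pfdn4 at -4.09 (SE 0.38), Uri1 at -1.87 (SE 0.37) and Vbp1 at 2.21 (SE 0.36), each past the test. Of the 7 co-chaperone genes 4 rose and 1 fell, Rpap3 (-1.37, SE 0.42), with a list median of 1.75. Of the 7 actins 4 rose and 0 fell (median 1.42). The 4 were Actg1 (4.74, SE 0.33), Actb (3.79, SE 0.39), Actr1a (2.50, SE 0.74) and Actr3 (1.42, SE 0.33). Of the 13 tubulins 4 rose and 2 fell (median 0.88), near the shares of all genes, with Tubb4b rising (1.59, SE 0.60) and Tube1, a centriolar tubulin, falling (-2.25, SE 0.47). Of the 6 tubulin cofactors 4 rose and 0 fell (median 1.70), among them Tbce (3.21, SE 0.89) and Arl2 (1.71, SE 0.57). Of the 16 other clients 3 rose and 3 fell (median 0.04), close to or below those shares, with Ccne1 rising (2.60, SE 0.57).

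**Figure D5:**
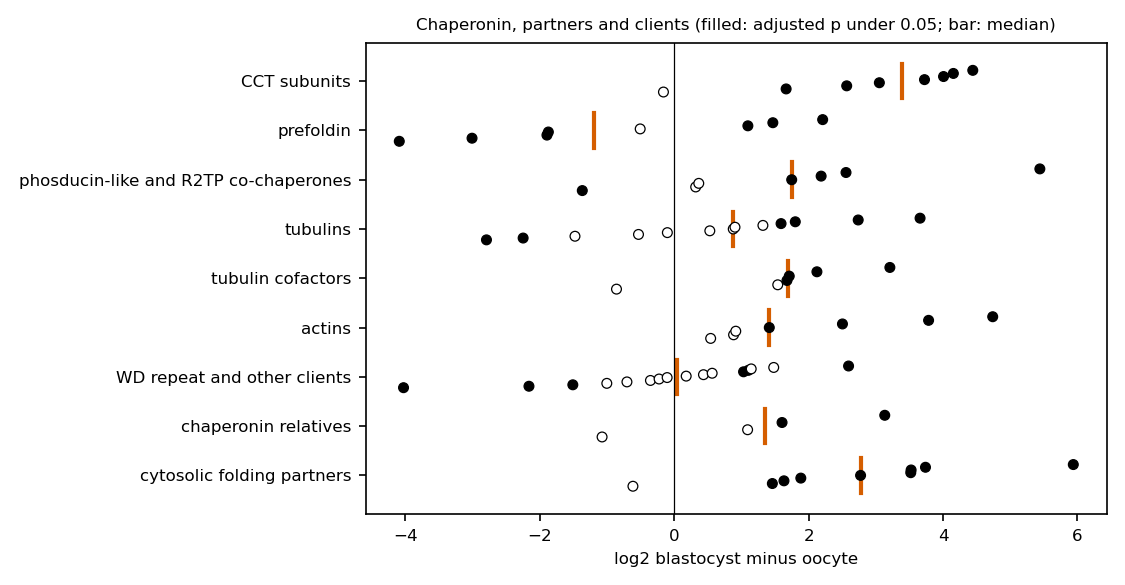
Log2 blastocyst minus oocyte for each tested gene of the CCT subunits and of 8 lists of partners, clients and relatives; filled points passed the test (adjusted p under 0.05, limma), and vertical bars are list medians. The subunits and the cytosolic folding partners (Hsp70 and Hsp90 system genes with Hsf2) have the rightmost medians, 3.39 and 2.77, and prefoldin the leftmost, -1.19.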

How the data were processed

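The study's 8 Affymetrix arrays were deposited as one table of linear signal intensity per probe set, made by the authors with MAS5, per the submitters' processing notes. The MAS5 version was unstated, and no detection calls were used. A trimmed mean (2% off each end) was 500 on every array, and the number of arrays limits precision.

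Of 45101 probe sets, 34945 had 1 gene symbol, 932 several, 9160 none and 64 were controls. Symbols were updated by Entrez identifier through RefSeq's GRCm38.p6 table. Signals were taken to log2 without further scaling, and the upper 50% of probe sets by mean log2 (22519, mean signal at least 151) were kept. Each gene was represented by its brightest probe set, which left 11746 genes. limma 3.58.1 in R 4.3.3 (lmFit, eBayes with an intensity trend, Benjamini-Hochberg) compared KO with WT blastocysts (2 against 2 arrays), and stages and genotypes together over 8 arrays. Oocyte and implantation site pairs were not tested. The steps were tested on simulated data.

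Background was read from 27 Bacillus control probe sets per array, on the assumption that no Bacillus RNA was added. Promoter sequences came from RefSeq. Figures were drawn with matplotlib 3.10.9.

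The subunits and gene lists were chosen with earlier results of these data known. Of 137 listed genes 127 matched a gene with a probe set of its own. Named were all 25 subunit probe sets, Gja1, list members passing a KO test or otherwise the 3 with the largest blastocyst difference, sums of marker lists, and the 5 genes most like the mean subunit profile. Zp3, Nanog, Ptprc, Csf1r, Actb, Actg1, Actr3 and Hsf2 were named after their values were seen. Alternatives covered scaling, pseudocount (64), filter, choice of probe set, intensity trend, replicate block, leaving out arrays and a floor at the brightest Bacillus control.

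The cumulus and granulosa markers (7 genes) summed to 1732 and 1849 in oocytes, 1256 to 3259 in blastocysts and 6830 and 3490.4 at the implantation site, and 5 endothelial markers to 1023 and 1447, 596 to 2015, and 1634 and 1441.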

Additional observations from a re-analysis of the deposited data

Results flagged for a closer look

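For 3 subunits the blastocyst groups did not overlap with KO lower, while the array pair of another stage went the other way. Tcp1 was at a log2 difference of 0.23 in oocytes against -0.78 in blastocysts. Cct4 was at 0.48 at the implantation site against -0.46 in blastocysts. Cct6a was at 0.84 at the implantation site against -0.60 in blastocysts. Each of the other stages has 1 array of each genotype, and the difference between stages was not tested. No group held enough arrays for a check of single outlying arrays.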

How the results depend on the processing

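The 8 subunits' lower signal in KO blastocysts kept its direction under every scaling tried. The replicate numbers of the blastocyst arrays did not pair them (r = 0.02 over 11746 genes between the KO and WT replicate differences). With the replicate block the median was -0.64, 0 subunits passed, and the genes passing went from 12 to 91 higher and from 0 to 1 lower. The median became -0.36 with a common median of the brightest genes, an alternative chosen after seeing the data, and ran from -0.93 to -0.33 when 1 blastocyst array was left out, with 0 to 1 subunits passing as lower. Cct6a turned to 0.34 when only probe sets without a suffix in their name were used. Over the 3 stages Cct3 turned to 0.0089 with a common median of the brightest genes and to 0.031 without the blastocyst stage.

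The blastocyst minus oocyte median was 2.76 when a gene's probe sets were averaged. With suffix-free probe sets it was 3.73 over 5 subunits, since Cct2, Cct3 and Cct8 had none past the filter. It was 2.97 with every probe set as its own feature, when 18 of 21 passed as higher against 26% of all probe sets. Without 1 array, Cct8 ran from -0.42 to 0.10, above 0 without blastocyst KO replicate 1 (0.040) or the KO oocyte array. The implantation site minus oocyte median was 2.41 with averaged probe sets, and 16 of 21 probe sets passed as higher against 19.9% of all.

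For implantation site minus blastocyst the median was 0.13 with a common median, -0.55 over the 5 subunits with suffix-free probe sets, and -0.55 to -0.067 without 1 array. Subunits passing as lower were 2 after quantile normalization, 0 with a common median, 0 without the intensity trend, 4 of 21 among single probe sets (18.4% of all probe sets) and 0 to 1 without 1 array. As higher, 1 of 21 passed among single probe sets (13.8% of all), and 0 to 1 without 1 array. Cct2 turned to -0.21 after quantile normalization, -0.075 with the brightest genes' median, and ran from -0.083 to 0.16 without 1 array. Cct4 turned to 0.27 with a common median and ran from -0.64 to 0.45 without 1 array. Cct6a turned to -0.14 after quantile normalization, -0.23 with averaged probe sets, -0.55 with suffix-free probe sets and ran from -1.01 to 1.21 without 1 array. The KO minus WT median of the oocyte pair was -0.58 with a common median and -0.41 with averaged probe sets, and that of the implantation site pair 0.19 with a common median. The cause of these changes was not tested. With 1 array per genotype at 2 of the 3 stages, and Cct5 and Cct6a near background on the KO oocyte array, small differences were not detectable.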
